A study of Mus musculus with 25 samples.

Results

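Transcripts of 8 genes that mark tanycytes and ependymal cells were followed through a translating-ribosome experiment on mouse hypothalamus. The genes were chosen by name, with no measured value in the rule, but earlier results of these data were known at the time. All 8 were found among the 45706 genes of the bacTRAP table by matching Ensembl identifiers to symbols. In bacTRAP, a GFP-tagged ribosomal protein L10a is made in chosen cells, ribosomes are precipitated with antibodies to GFP, and the bound RNA (IP) is sequenced beside the RNA of the lysate (INPUT). The 5 tanycyte genes were Rax, Lhx2, Gpr50, Frzb and Col25a1, and the 3 ependymal genes were Foxj1, Ccdc153 and Tmem212.

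The 16 libraries made 4 groups of 4, namely IP of mice on a high-fat diet (HFD), IP of mice on a control diet (CD), INPUT of HFD mice and INPUT of CD mice. Every mouse, on either diet, had the genotype Slco1c1Cre+/-;ROSA26lSlL10aGFP+/-, so that a tamoxifen-inducible Cre under the Slco1c1 promoter switched on the tagged ribosome. Mice were 12 weeks old, were placed on their diet 3 weeks after tamoxifen and stayed on it for 3 days, and each library came from a pool of 4 hypothalami (2 female and 2 male). The Slco1c1 promoter was chosen to reach endothelium of brain vessels with a barrier, but Slco1c1, a thyroid hormone transporter, is also known from tanycytes and astrocytes. No untagged control precipitation was analysed here.

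Tanycytes are elongated, radial-glia-like cells in the floor and lower walls of the third ventricle. Their processes reach blood vessels and the neurons of the mediobasal hypothalamus, and they are known for transport of hormones and metabolic signals between blood, cerebrospinal fluid and brain. Ependymal cells line the ventricle above them and carry motile cilia, which are built under the control of the forkhead factor Foxj1 and factors of the RFX family. Both kinds of cell are a small share of the hypothalamus, so their transcripts are diluted in a whole-tissue lysate.

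Total estimated counts were 27.9 to 41.2 M (1e6 counts) in the IP libraries and 29.0 to 42.8 M in the INPUT libraries. At these depths 3 counts stood for 0.0688 to 0.113 CPM, the counts of a gene per 1e6 counts. Mitochondrial and ribosomal RNA took 2.83 to 3.53% of counts in IP and 30.2 to 37.6% in INPUT, and CPM were scaled with TMM factors, which set the libraries against each other by the bulk of their genes. The labelled cell type of these samples is endothelial. All 12 endothelial markers were higher in IP, and 11 of them had enough counts for a test in INPUT. Their summed level was 171 to 239 CPM in IP and 44.4 to 58.1 CPM in INPUT. All 10 astrocyte markers were also higher in IP, with a summed level of 23671 to 29567 CPM in IP and 3396 to 4188 CPM in INPUT. All 10 neuronal markers were lower, with 3525 to 4959 CPM in IP and 9141 to 10922 CPM in INPUT. Of all genes tested between IP and INPUT, 41.6% were higher and 42.1% lower in IP.

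**Figure D1:**
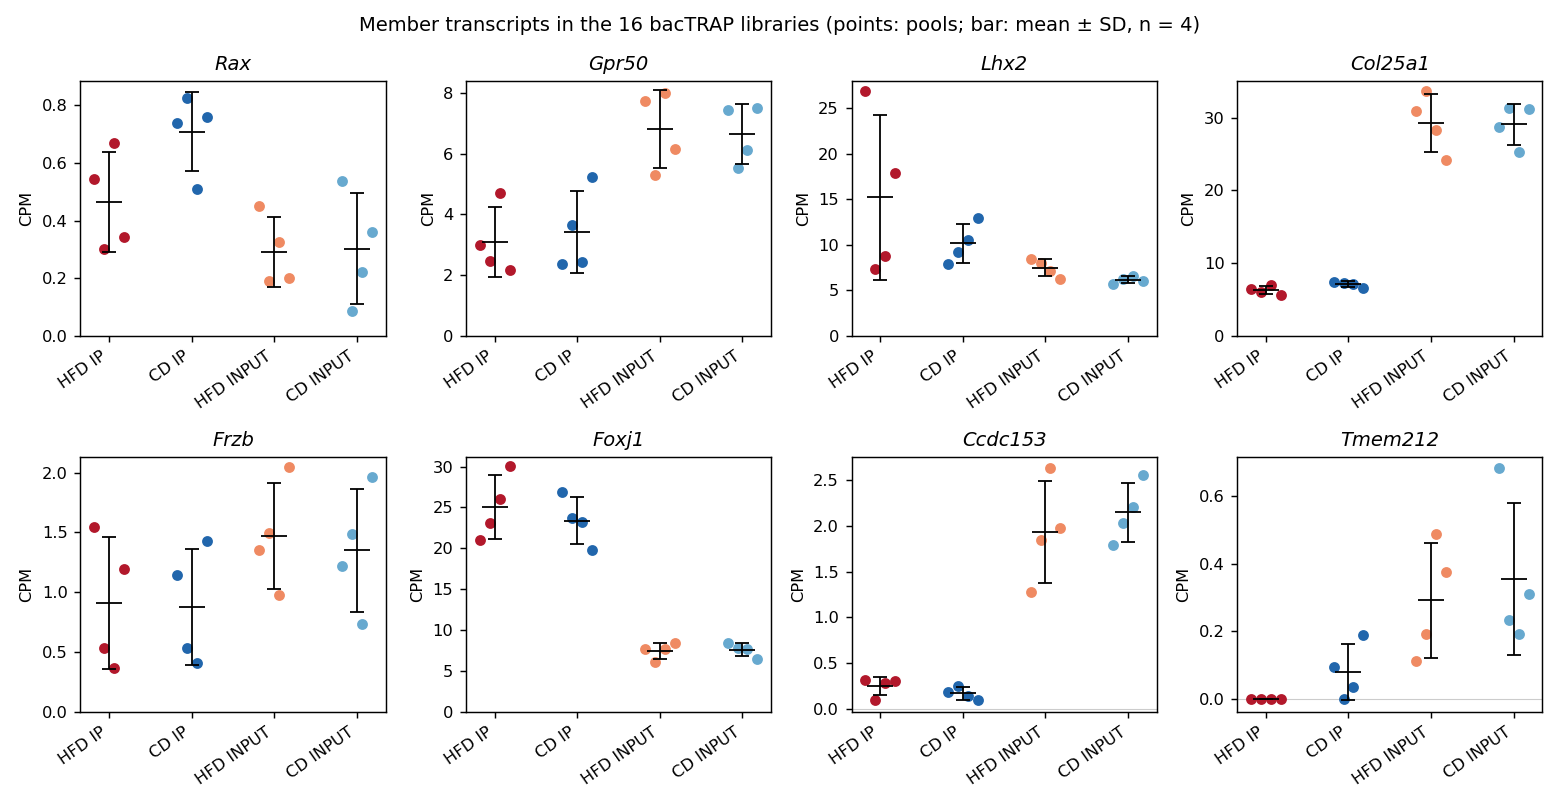
Level in CPM of each of the 8 transcripts in HFD IP, CD IP, HFD INPUT and CD INPUT libraries, with 1 point per pool and a bar for the mean ± SD of 4 pools. Foxj1 stood higher in all 8 IP libraries than in any INPUT library, and Gpr50, Col25a1 and Ccdc153 stood lower in all 8. Of all genes tested, 31.4% were higher and 28.6% lower in IP with no overlap, and Ccdc153 had enough counts in INPUT only.

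The precipitated RNA held more of 3 of these transcripts and less of 3 others than the lysate, among the 6 that had enough counts in both. Foxj1, Rax and Lhx2 were higher in IP, and Gpr50, Col25a1 and Frzb were lower. Ccdc153 had enough counts in INPUT only and Tmem212 was too low for the test, so both are described by their levels. Of the 5 tanycyte genes, 2 were higher and 3 lower. On library totals 2 of the 5 were higher and 2 lower, and on totals without mitochondrial and ribosomal RNA 0 were higher and 3 lower. In edgeR's quasi-likelihood test with Benjamini-Hochberg adjustment over 17592 genes, 83.7% of all genes tested passed an adjusted p of 0.05, 41.6% being higher and 42.1% lower in IP, so that a call by itself sets no gene apart here. The median log2 fold change was -0.69 over the 5 tanycyte genes and -0.02 over all genes. In bulk libraries of this kind, fewer tagged cells of a type and less bound RNA per cell cannot be told apart.

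Rax encodes a paired-type homeodomain factor of the early eye and hypothalamus that stays on in adult tanycytes. It lies at chr18:65928277-65939787 on the minus strand (GRCm38) and was the lowest of the tanycyte genes. HFD IP libraries held 19, 9, 26 and 15 counts of Rax and CD IP libraries 24, 36, 15 and 24.4, against 12, 6, 11.9 and 8 in HFD INPUT and 14.5, 3, 7.29 and 14 in CD INPUT. As CPM these were 0.301 to 0.827 in IP and 0.0872 to 0.538 in INPUT. The groups overlapped, but in each of the 8 pairs of libraries with the same diet and number the IP value was the higher. The labels do not say that libraries of 1 number came from 1 pool of mice. Rax was higher in IP by 0.95 ± 0.30 on the log2 scale (SE, adjusted p = 0.00548, edgeR). Its antisense neighbour Raxos1 shares 1604 exon bases with it and had a mean count of 0.574 in IP and 0.786 in INPUT, and whether reads were counted by strand is not given in the sources used here.

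Lhx2, at chr2:38339281-38369733 on the plus strand, encodes a LIM-homeodomain factor that acts in forebrain patterning and is kept in adult tanycytes. Its levels were 26.9, 7.32, 8.80 and 17.9 CPM in HFD IP and 7.87, 9.24, 10.5 and 13.003 CPM in CD IP, against 8.41, 8.04, 7.18 and 6.29 CPM in HFD INPUT and 5.71, 6.25, 6.64 and 6.06 CPM in CD INPUT. HFD IP pools 1 and 4 stood far above the rest, and HFD IP pool 2 lay below the HFD INPUT library of the same number. Lhx2 was higher in IP by 0.85 ± 0.24 on the log2 scale (adjusted p = 0.00584, edgeR), in 7 of 8 same-numbered pairs. Among CD libraries alone the difference was 0.67 ± 0.13 (adjusted p = 0.000193), and among HFD libraries alone it was 0.99 ± 0.45 (adjusted p = 0.0854). Scaled to totals without mitochondrial and ribosomal RNA, the differences fell to 0.61 for Rax (adjusted p = 0.0651) and 0.51 for Lhx2 (adjusted p = 0.0691), and neither passed.

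Gpr50, at chrX:71663667-71669257 on the plus strand, encodes an orphan receptor related to the melatonin receptors. It had 3.01, 2.47, 4.72 and 2.15 CPM in HFD IP and 2.38, 3.65, 2.42 and 5.22 CPM in CD IP, against 7.74, 5.31, 7.99 and 6.17 CPM in HFD INPUT and 7.43, 5.52, 6.13 and 7.50 CPM in CD INPUT. Every IP value lay below every INPUT value, though the highest IP value of 5.22 CPM came close to the lowest INPUT value of 5.31 CPM. The difference was -1.07 ± 0.18 on the log2 scale (adjusted p = 3.48e-05, edgeR). Of all genes tested, 28.6% were lower in IP with no overlap of the 8 and 8 libraries, and 31.4% were higher with none.

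Frzb, at chr2:80411970-80447625 on the minus strand, encodes a secreted Frizzled-related protein that binds Wnt ligands. Its levels were 1.55, 0.535, 0.361 and 1.19 CPM in HFD IP and 1.14, 0.528, 0.409 and 1.42 CPM in CD IP, against 1.35, 1.49, 0.975 and 2.05 CPM in HFD INPUT and 1.22, 1.48, 0.734 and 1.96 CPM in CD INPUT. Library 3 was the lowest of its group in all 4 groups, and library 4 was the highest in all but HFD IP. Frzb was lower in IP by a log2 fold change of -0.69 ± 0.31 (adjusted p = 0.0439, edgeR), in 7 of 8 same-numbered pairs. Fitted without a block for the replicate number, this was the weakest call of the 6. It was lost when any 1 of 10 of the 16 libraries was left out, namely numbers 2 and 3 of either IP group and 1, 2 and 4 of either INPUT group. The adjusted p ran from 0.0125 to 0.103 over the 16 omissions, and scaled to library totals the difference was -0.45 (adjusted p = 0.192). With the replicate number as a block, and all 16 libraries, it was -0.78 ± 0.21 (adjusted p = 0.00134, edgeR).

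Col25a1, at chr3:130131501-130599877 on the plus strand, encodes a membrane-spanning collagen that neurons also make. HFD IP had 6.48, 5.98, 6.96 and 5.66 CPM and CD IP 7.38, 7.33, 7.19 and 6.58 CPM, against 30.8, 33.6, 28.3 and 24.2 CPM in HFD INPUT and 28.6, 31.3, 25.3 and 31.2 CPM in CD INPUT. The groups were far apart and the 8 IP libraries varied little, with a coefficient of variation of 9.49%. The log2 fold change was -2.15 ± 0.07 (adjusted p = 2.99e-19, edgeR), a 4.45-fold lower level in IP. The 10 neuronal markers fell beside it with a median of -1.31, and their part in the value of Col25a1 was not tested.

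Foxj1, the forkhead master regulator of motile cilia, lies at chr11:116330704-116335399 on the minus strand. It had 21.1, 23.1, 26.0 and 30.006 CPM in HFD IP and 26.8, 23.8, 23.2 and 19.8 CPM in CD IP, against 7.70, 6.10, 7.69 and 8.42 CPM in HFD INPUT and 8.40, 7.76, 7.66 and 6.47 CPM in CD INPUT. No IP library came near an INPUT library. Foxj1 was higher in IP by 1.66 ± 0.08 on the log2 scale (adjusted p = 2.57e-15, edgeR), or 3.16-fold, and the ratio within same-numbered pairs ran from 2.73 to 3.79.

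Ccdc153, at chr9:44240676-44247306 on the plus strand, encodes a coiled-coil protein, and its transcript is widely used as an ependymal marker. It had 0.315, 0.1002, 0.284 and 0.298 CPM in HFD IP and 0.185, 0.253, 0.136 and 0.0949 CPM in CD IP, against 1.28, 1.84, 2.63 and 1.97 CPM in HFD INPUT and 1.79, 2.04, 2.20 and 2.55 CPM in CD INPUT. The IP values rested on 3 to 13 counts each and none reached an INPUT value. Ccdc153 passed the filter on low counts through its INPUT level alone, so that a low IP level was set by its selection and its test is not used. The fitted log2 fold change of -3.29 ± 0.22 (SE) is given as a description.

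Tmem212, at chr3:27866066-27896368 on the minus strand, encodes a membrane protein whose transcript is used as an ependymal marker. All 4 HFD IP libraries held 0 counts of Tmem212 and the CD IP libraries 3, 0, 1 and 6, against 3, 6, 18 and 15 in HFD INPUT and 19, 8, 6 and 12 in CD INPUT. The IP libraries together held 10 counts and the INPUT libraries 87. The HFD IP group, with 3 counts over the group taken as its floor, was at least 15.3-fold lower than the HFD INPUT group. This bound covers counting error in HFD IP only, not that of the 42 counts in HFD INPUT, and holds for HFD alone. In CD the gap was smaller, with 0.0791 ± 0.0831 CPM in IP and 0.354 ± 0.224 CPM in INPUT (SD, n = 4 each). IP and INPUT as a whole overlapped. Tmem212 could not be read in IP. Rax in INPUT and Ccdc153 in IP, at 3 to 14.5 and 3 to 13 counts per library, were near the limit.

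The promoters of Ccdc153 and Tmem212 are shown because both are markers of ciliated cells with few counts in IP, and because only theirs held a motif searched for. RefSeq windows on GRCm38.p6 from 250 bases before to 50 bases after a gene's start were available for 6 of the 8 genes, with 7 windows in all, and not for Rax and Foxj1. They were searched on both strands for GTTGCC, which is only a part of the X-box bound by RFX factors. The same search was made for TGTTTNC, a forkhead motif, and for TAATTA, a homeodomain motif. Ccdc153 held 1 GTTGCC and Tmem212 1 TGTTTNC, both shown in capitals in the 250 bases before the start, 5′ to 3′ on the strand of the gene. The other 5 windows held none of the 3 letter strings. Of 32851 promoter windows of this length, 12.5% held GTTGCC, 20.5% held TGTTTNC and 5.29% held TAATTA, so that either match is common, and a match is a description and not a bound site. The Ccdc153 bases are chr9:44240427-44240676 on the plus strand and the Tmem212 bases chr3:27896369-27896618 on the minus strand.
Ccdc153: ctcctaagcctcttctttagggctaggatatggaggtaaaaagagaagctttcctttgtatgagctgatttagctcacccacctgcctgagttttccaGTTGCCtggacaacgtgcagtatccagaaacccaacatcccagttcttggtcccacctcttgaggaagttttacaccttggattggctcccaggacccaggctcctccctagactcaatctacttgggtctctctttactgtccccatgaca
Tmem212: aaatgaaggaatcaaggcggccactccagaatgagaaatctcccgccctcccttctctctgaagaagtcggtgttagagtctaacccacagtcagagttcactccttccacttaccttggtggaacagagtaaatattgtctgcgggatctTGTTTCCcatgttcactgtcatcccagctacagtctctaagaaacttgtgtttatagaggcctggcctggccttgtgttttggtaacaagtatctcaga

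Divided by merged exon length, the levels could be ordered between genes. In IP, Foxj1 stood at 9.23 CPM per kb, above all others without overlap, and was followed by Lhx2 at 2.89 and Gpr50 at 1.06 CPM per kb, whose libraries overlapped. Below them, with no overlap, came Col25a1 at 0.517, Frzb at 0.276, Ccdc153 at 0.102, Rax at 0.1005 and Tmem212 at 0.0553 CPM per kb, each overlapping the next. In INPUT, Foxj1 at 2.87, Col25a1 at 2.25, Gpr50 at 2.19 and Lhx2 at 1.55 CPM per kb each overlapped the next. Ccdc153 at 1.00, Tmem212 at 0.451 and Frzb at 0.435 CPM per kb formed a lower run, and Rax at 0.0508 CPM per kb lay below all of them without overlap. Foxj1 thus led in both kinds of library and Rax was at or near the bottom of both.

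**Figure D2:**
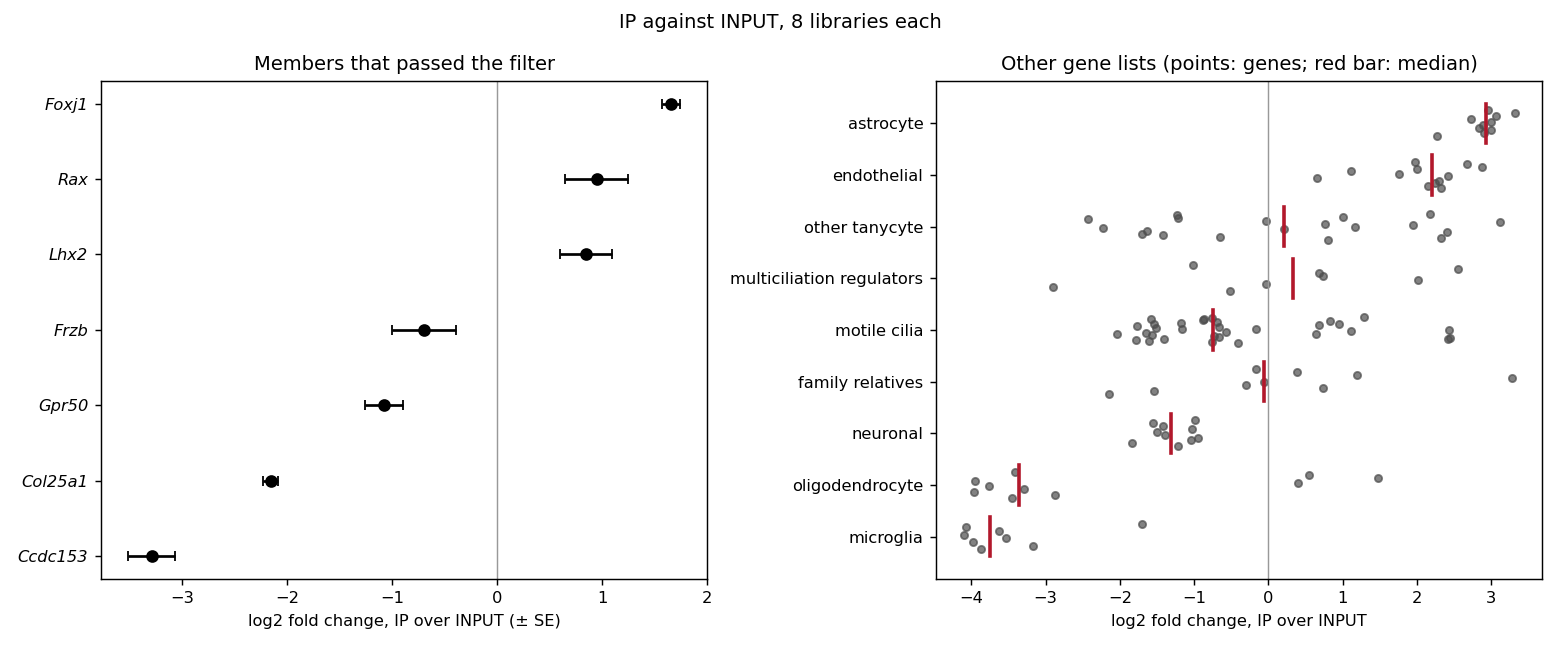
Log2 fold change of IP over INPUT, 8 libraries each, with points and ± SE for the 7 genes that passed the filter (left) and points per gene with a red median bar for other gene lists (right). The 6 genes with enough counts in both kinds of library spread from -2.15 for Col25a1 to 1.66 for Foxj1. Ccdc153, at -3.29, had enough counts in INPUT only, so its value is a description. The tanycyte and cilia lists each lie on both sides of 0.

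Other known tanycyte genes were called at shares near those of all genes. Of 20 listed, 19 were tested, 8 were higher and 7 lower in IP, beside 41.6% and 42.1% of all genes, with a median log2 fold change of 0.21. Higher were Slco1c1 (3.12 ± 0.11), whose promoter drives the Cre, the imprinted gene Nnat (2.18 ± 0.09), and the intermediate filament genes Vim (1.94 ± 0.09) and Nes (1.16 ± 0.12). Lower were the homeobox gene Six6 (-2.43 ± 0.14), the matrix proteoglycan Vcan (-2.23 ± 0.09), the growth factor Fgf10 (-1.63 ± 0.10) and the opioid precursor Penk (-1.23 ± 0.08). Endothelial cells and astrocytes also express several of the genes that were higher, Slco1c1 and Vim among them, and the part of those cells was not tested. Scaled to library totals, 11 of the 19 were higher and 7 lower, and scaled without mitochondrial and ribosomal RNA 8 were higher and 9 lower, with a median of -0.13.

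Regulators of multiciliation, the program that Foxj1 belongs to, also moved both ways. Of 10 regulators, 8 were tested, and 6 of these had enough counts in IP. In IP 4 were higher and 2 lower, beside 41.6% and 42.1% of all genes, with a median log2 fold change of 0.32. E2f5, a cell-cycle factor that also acts in multiciliated cells, averaged 36.1 ± 3.27 CPM in IP and 6.01 ± 0.613 CPM in INPUT (SD, n = 8 each; log2 fold change 2.56 ± 0.06). The RFX factors Rfx2 (2.01 ± 0.07) and Rfx3 (0.74 ± 0.05) and the E2F factor E2f4 (0.68 ± 0.07) were higher too. Myb, which acts early in multiciliation, was near the limit in IP, with 0.129 ± 0.0475 CPM in IP and 0.987 ± 0.317 CPM in INPUT. A low IP level can come from its selection through INPUT, so its fitted -2.90 ± 0.27 is a description. The deuterosome gene Deup1 was lower (-1.02 ± 0.15). Mcidas and Ccno, further regulators of this program, were too low to test. Without mitochondrial and ribosomal RNA in the totals the regulators' median was -0.02, with 4 higher and 3 lower.

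Of 32 genes of the motile cilium, all tested, 30 had enough counts in IP. In IP 9 were higher and 21 lower, beside 41.6% and 42.1% of all genes, with a median log2 fold change of -0.75. A gene with enough counts in INPUT only is low in IP by its selection. The lower ones took in the central-pair genes Hydin (-1.64 ± 0.14) and Spag6l (-1.57 ± 0.11), Cfap54 (-1.53 ± 0.11) and the radial-spoke gene Rsph4a (-1.16 ± 0.08). Rsph4a averaged 7.74 ± 1.06 CPM in IP and 17.05 ± 1.51 CPM in INPUT (SD, n = 8 each). Against these, the outer-arm dynein intermediate chains Dnai2 (2.44 ± 0.16) and Dnai1 (2.41 ± 0.08), the tektin Tekt4 (2.43 ± 0.19) and Iqcg (1.28 ± 0.10) were higher. Dnai1 averaged 28.8 ± 3.02 CPM in IP and 5.30 ± 0.634 CPM in INPUT. The split changed little with scaling, with 9 higher and 18 lower on library totals and 8 higher and 23 lower without mitochondrial and ribosomal RNA.

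Relatives of the 8 genes were also called at about the shares of all genes. Of 12 relatives, 9 were tested, 4 were higher and 4 lower in IP, beside 41.6% and 42.1% of all genes, with a median log2 fold change of -0.07. Sfrp5, a secreted Frizzled-related gene like Frzb, went the other way (3.28 ± 0.11), with 29.5 ± 5.85 CPM in IP and 2.95 ± 0.777 CPM in INPUT, and Sfrp1 was also higher (0.74 ± 0.11). Sfrp2 was slightly lower (-0.30 ± 0.13). The LIM-homeodomain genes Lhx9 (-2.15 ± 0.17) and Lhx1 (-1.55 ± 0.08) were lower where Lhx2 was higher. Col23a1, a membrane collagen like Col25a1, was higher (1.19 ± 0.12), and Foxj2 (0.39 ± 0.04) and Foxj3 (-0.17 ± 0.04) moved far less than Foxj1. Mtnr1b, a melatonin receptor related to Gpr50, is at 0 counts in all 16 libraries, and Mtnr1a and Col13a1 were too low to test. On library totals 4 relatives were higher and 2 lower, and without mitochondrial and ribosomal RNA 3 were higher and 5 lower.

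Markers of neighbouring cells were read in the same libraries, where 41.6% of all genes tested were higher and 42.1% lower in IP. Choroid plexus markers summed to 104 to 178 CPM in IP and 16.7 to 22.7 CPM in INPUT. Of the 6 tested, 5 had enough counts in INPUT, and 4 were higher and 1 lower in IP. Pituitary and pars tuberalis markers summed to 39.2 to 116 CPM in IP and 114 to 1128 CPM in INPUT. All 10 were lower in IP, where 8 of them had enough counts. Library 1 of CD set the upper end in both IP and INPUT, and the others reached 54.2 CPM in IP and 343 CPM in INPUT. Microglial markers summed to 22.1 to 30.9 CPM in IP and 193 to 257 CPM in INPUT, and all 8 were lower. Oligodendrocyte markers summed to 873 to 1046 CPM in IP and 2560 to 3011 CPM in INPUT, with 3 higher and 7 lower. Pericyte and smooth muscle markers had 2 higher and 5 lower of 8, of which 7 had enough counts in IP. The part of these cells in the values of the 8 genes was not tested.

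No diet difference passed the test for any of the 8 genes. In IP, 6 of them passed the filter and 0 of 6 were called by edgeR, beside 14 of 15858 genes (0.0883%), and in INPUT all 8 were tested and 0 of 8 were called, beside 6 of 16879 genes (0.0355%). With the replicate number as a block, the INPUT count over all genes was 43 in place of 6, and still 0 of the 8. At an unadjusted p under 0.05 none of the 6 passed in IP, where 11.5% of all genes did, and 1 of the 8 in INPUT, where 7.45% did. DESeq2 called 0 of the 3 genes to which it gave an adjusted p in IP (Lhx2, Col25a1 and Foxj1) and 0 of 8 in INPUT. The groups of 4 pools overlapped for all 8 genes in both kinds of library, where 6.12% of genes in IP and 4.64% in INPUT did not overlap. Misses of the threshold do not show equal levels, and the intervals of 2 SE bound what these pools could hide.

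**Figure D3:**
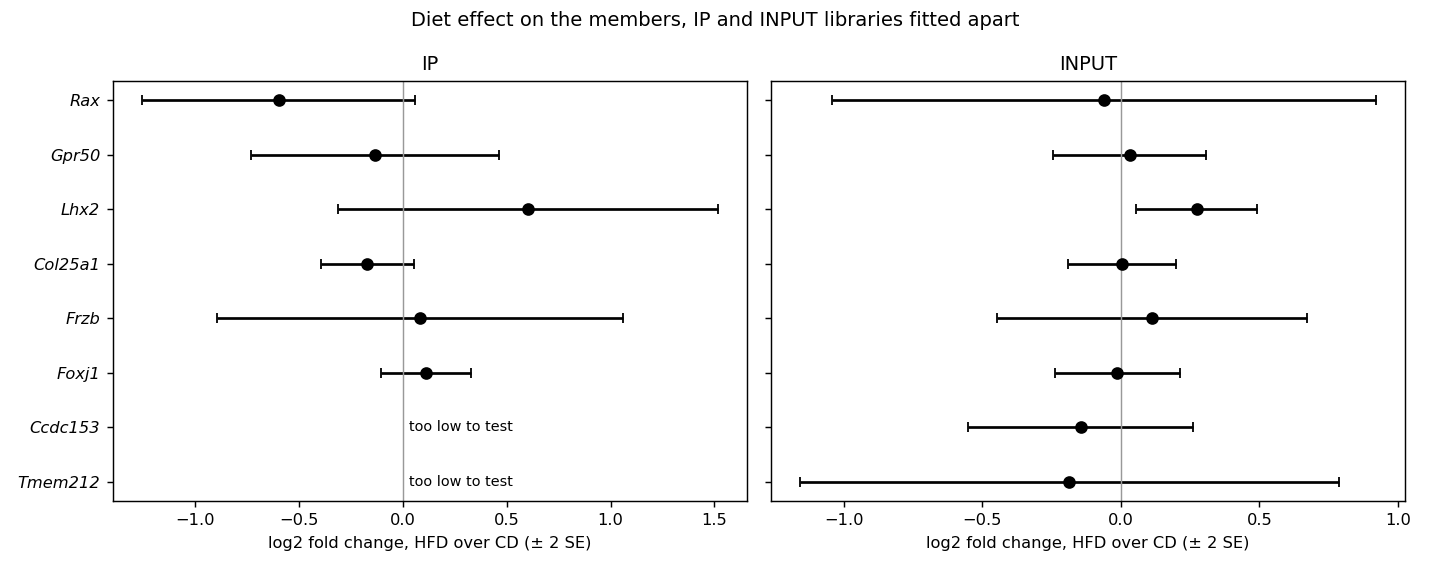
Log2 fold change of HFD over CD for each of the 8 genes in IP (left) and INPUT (right), with ± 2 SE. Intervals are narrow for Foxj1 and Col25a1 and wide for Frzb, Lhx2 in IP and Rax in INPUT, and Ccdc153 and Tmem212 were too low to test in IP.

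Lhx2 and Rax had the diet differences in IP farthest from 0 among the 6. Lhx2 had 15.2 ± 9.09 CPM in HFD IP and 10.2 ± 2.18 CPM in CD IP (SD, n = 4 each). The log2 fold change was 0.60 ± 0.46 (adjusted p = 0.682, edgeR), and its interval of 2 SE ran from -0.31 to 1.52. Without HFD IP pool 1 it was 0.18 ± 0.35. In INPUT the values were 7.48 ± 0.946 CPM in HFD and 6.16 ± 0.387 CPM in CD, a difference of 0.27 ± 0.11 on the log2 scale (unadjusted p = 0.0229, adjusted p = 0.605, edgeR). The INPUT difference was the only unadjusted p under 0.05 among the 8 genes.

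Rax in IP was 0.465 ± 0.173 CPM in HFD and 0.710 ± 0.137 CPM in CD, a log2 fold change of -0.60 ± 0.33 (adjusted p = 0.512, edgeR), and in INPUT it was -0.06 ± 0.49. Foxj1 and Col25a1 had the smallest errors of the 6 in IP. Foxj1 was 25.04 ± 3.88 CPM in HFD IP and 23.4 ± 2.89 CPM in CD IP, with a log2 fold change of 0.11 ± 0.11 in IP and -0.01 ± 0.11 in INPUT, and its interval in IP ran from -0.10 to 0.33. Col25a1 was 6.27 ± 0.571 CPM in HFD IP and 7.12 ± 0.368 CPM in CD IP, with -0.17 ± 0.11 in IP and 0.00 ± 0.10 in INPUT. Gpr50 (-0.13 ± 0.30) and Frzb (0.08 ± 0.49) in IP lay well within their errors. Ccdc153 (-0.14 ± 0.20) and Tmem212 (-0.19 ± 0.49) could be tested between diets in INPUT alone.

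Whether the difference between IP and INPUT depended on diet was tested as an interaction. In the interaction of diet and IP over the 16 libraries, 0 of 17592 genes were called (0%), with 755 at an unadjusted p under 0.05, and 0 of the 7 genes tested were called, nor did any of the 7 reach an unadjusted p under 0.05. DESeq2 called 2 of all genes and none of the 8. The interaction was -0.55 ± 0.60 for Rax and 0.31 ± 0.49 for Lhx2 on the log2 scale. Ccdc153, among the 7, entered this fit through its INPUT level alone. With 3 to 13 counts per IP library, its value of 0.69 ± 0.47 is a description. That for Foxj1, 0.11 ± 0.16, had the smallest error after Col25a1 (-0.19 ± 0.14).

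In the wider tanycyte and cilia lists, 1 gene passed between diets. Vim, of the other tanycyte genes, was higher in HFD than CD INPUT (0.60 ± 0.08, adjusted p = 0.00560, edgeR), and its IP value of 0.82 ± 0.16 did not pass (adjusted p = 0.122). Slc17a8, a vesicular glutamate transporter, had the next smallest p of the list in IP (1.79 ± 0.52, adjusted p = 0.195). In INPUT, 15 of the 19 tanycyte genes had values above 0, with a median log2 fold change of 0.19 beside 0.00 over all genes, and 6 of 19 had an unadjusted p under 0.05, beside 7.45% of all genes. In IP, 8 of the 19 had values above 0, with a median of -0.06, and 5 of 19 had an unadjusted p under 0.05, beside 11.5% of all genes. None of the other 18 tanycyte genes tested, of the multiciliation regulators, of the cilia genes or of the relatives passed in IP or INPUT. Their smallest p-values were those of Sfrp5 in IP (-0.41 ± 0.10, adjusted p = 0.134) and of Iqcg in INPUT (0.35 ± 0.09, adjusted p = 0.221). Of the marker lists of other cells, 1 gene passed, the astrocyte marker Agt, which was lower in HFD than CD IP (-0.54 ± 0.09, adjusted p = 0.0321).

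The 8 genes differed widely in how steady they were among pools. Over the 8 IP libraries, Frzb had a coefficient of variation of 54.2%, where counting alone gives 17.8%, and Lhx2 of 52.8%, where counting gives 4.68%. Foxj1, by contrast, varied by 13.6% and Col25a1 by 9.49%. Rax in INPUT varied by 50.4%, of which counting alone gives 32.3%. These are spreads over pools of both diets, and that of Lhx2 comes mainly from HFD IP pools 1 and 4.

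**Figure D4:**
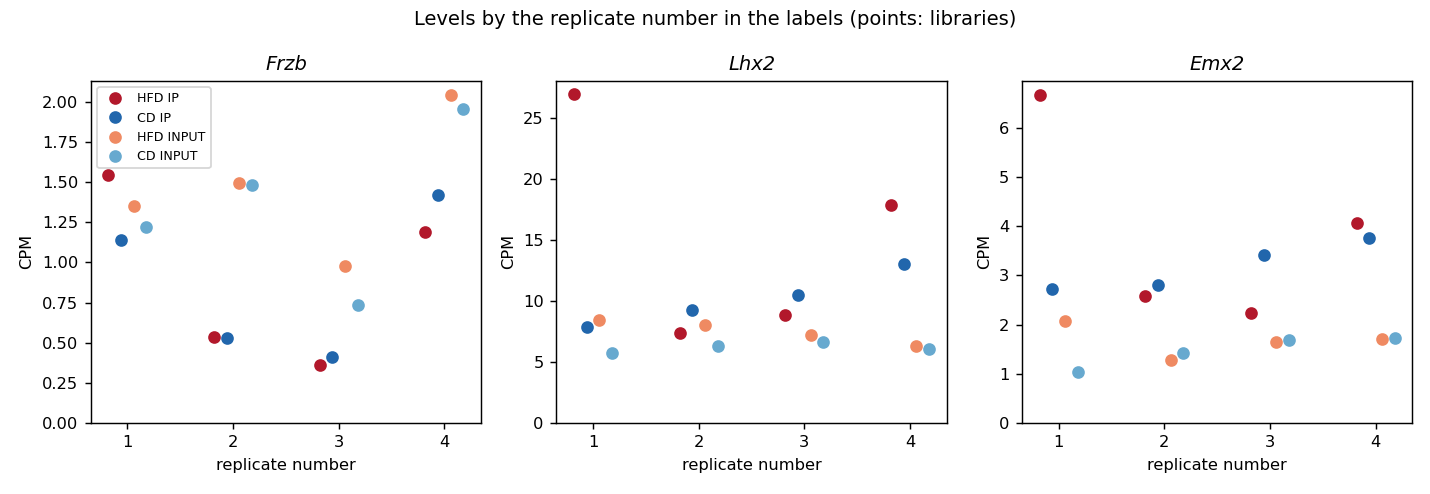
Level in CPM of Frzb, Lhx2 and Emx2 by the replicate number in the labels, with 1 point per library in the colour of its group. Frzb is lowest at number 3 in all 4 groups, and Lhx2 and Emx2 are high in HFD IP pools 1 and 4.

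The HFD IP pools with high Lhx2 were also the highest for Emx2, a homeobox gene of the dorsal telencephalon, which was looked at with 2 more telencephalic genes after the values of Lhx2 had been seen. Emx2 had 6.68, 2.57, 2.24 and 4.06 CPM in HFD IP and 2.72, 2.80, 3.41 and 3.76 CPM in CD IP, and it did not pass between diets in IP (0.31 ± 0.32, adjusted p = 0.773, edgeR). Tbr1, a T-box factor of cortical neurons, had 4.56, 3.58, 5.29 and 5.48 CPM in HFD IP and 2.69, 3.56, 4.77 and 3.23 CPM in CD IP (0.43 ± 0.17, adjusted p = 0.331, edgeR). For Tbr1, pool 3 was about as high as pool 4 in HFD IP, and Emx1 had 0 to 8 counts per library and was too low to test. The 3 genes summed to 6.15 to 11.5 CPM in HFD IP and 5.43 to 8.18 CPM in CD IP, and to 5.69 to 8.98 CPM in HFD INPUT and 5.02 to 6.38 CPM in CD INPUT. Their part in the values of Lhx2 was not tested.

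The genes most like each of the 7 that could be ranked, all but Tmem212, were found by the Pearson correlation of log2 CPM after subtraction of the group mean, over the 16 libraries and 12153 or 12154 genes, as a description. All these values share libraries and scaling. Lhx2 was closest to Pvt1 (r = 0.85), Emx2 (0.84) and Kctd3 (0.84), Frzb to Nckap5 (0.89), and Gpr50 to Gng4 (0.90) and Mrgpre (0.89). Foxj1 was closest to Flcn (0.90), Arf2 (0.89) and the neural stem-cell factor Sox2 (0.86), Col25a1 to the potassium channel gene Kcna2 (0.94), Ccdc153 to Abcg1 (0.86) and Rax to Slitrk5 (0.88). Rax, Frzb and Ccdc153 were too low to be among the genes ranked against the others. Among the 21 pairs of these 7 genes, the median r was 0.02 with a range of -0.38 to 0.66. The highest was Rax with Gpr50 (0.66), then Lhx2 with Frzb (0.54). Counting error in genes with few counts, such as Rax and Ccdc153, can pull r towards 0. These values therefore do not settle whether the genes varied together.

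The study also sequenced 9 libraries of cEND, a line of endothelial cells from mouse brain, normalised apart from the tissue libraries. They were treated with the vehicle DMSO or with the Glut1 inhibitor WZB117 at 0.5 or 10 µM, each at passages 12, 14 and 18, and the ranges given run over all 9 with no comparison of treatments. Lhx2 had 4.37 to 7.94 CPM there (median 5.64), Tmem212 0.851 to 1.66 CPM (26 to 68 counts) and Frzb 0.284 to 1.65 CPM (11 to 57 counts). Foxj1 had 2 to 7 counts per library, and Rax, Gpr50, Col25a1 and Ccdc153 had at most 7.54. So transcripts of Lhx2, Frzb and Tmem212 were also counted in cultured endothelial cells.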

How the data were processed

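RNA was sequenced from 16 bacTRAP libraries and 9 cEND libraries. The authors deposited estimated counts per Ensembl gene, not scaled; 17.3% of bacTRAP values were not whole and were rounded for fitting. The genome build is GRCm38, per the submitters' processing notes; the aligner, counter, annotation and strand setting are not given in the sources used here. Positions, symbols and exon lengths came from GENCODE M21 on GRCm38.

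Counts were scaled with TMM, filtered with filterByExpr and tested with edgeR 4.0.16 (robust quasi-likelihood, limma 3.58.1, R 4.3.3), tested first on simulated data. P-values are 2-sided and adjusted (Benjamini-Hochberg) over all genes tested, with a threshold of 0.05. IP against INPUT and the interaction used all 16 libraries with group means, and HFD against CD used 8 libraries each. Pools of mice are the replicates. Deviations of same-numbered HFD and CD INPUT libraries correlated at r of 0.104 to 0.201, and those of other-numbered ones at -0.197 to 0.135. For CD IP with CD INPUT the ranges were 0.0836 to 0.282 and -0.161 to 0.00676. For HFD IP with HFD INPUT they were -0.0217 to 0.238 and -0.180 to 0.129. The numbers may thus pair libraries, but the main fits had no block. Fits with the number as a block are given as alternatives. Likeness used log2(CPM + 0.1) for genes with a mean log2 CPM of at least 1. Alternatives were DESeq2 1.42.0, other scalings, no filter, the replicate block, subsets of libraries and leaving out each library. Genes named from a list were up to 4 in each direction with the smallest p, and between diets those called or the 2 of smallest p; the untested genes named were picked after their values were seen. The 8 genes and all lists were chosen with earlier results of these data known. No pair of libraries in a group agreed within counting noise (lowest chi-square per degree of freedom 8.46). A withheld item is not reported here.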

Additional observations from a re-analysis of the deposited data

Results flagged for a closer look

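Ccdc153 in HFD IP pool 2 stood apart from the other pools of its group, at 0.1002 CPM, or 3 counts, where the others had 0.284 to 0.315 CPM. Its gap was 0.854 of the group's range, above the critical value of Dixon’s test for 4 values. Of the levels of the 8 genes in the 4 groups, 31 sets of values were examined in this way, and chance alone flags about 1 in 20.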

How the results depend on the processing

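For IP against INPUT, all 6 genes with enough counts in both kinds of library passed the threshold, beside 83.7% of all genes. With Ccdc153 counted, whose test is not used, it was 7 of the 8. On that count it was 4 with HFD libraries only and 6 to 8 when 1 library was left out, and any 8 takes in Tmem212. Rax lost its call with HFD libraries only (0.66, adjusted p = 0.146). Frzb lost it without the filter on low counts (-0.66, adjusted p = 0.107), with CD libraries only (-0.70, adjusted p = 0.109) and with HFD libraries only (-0.73, adjusted p = 0.1001). With the replicate block the adjusted p (edgeR) was 0.00134 for Frzb, 0.0194 for Lhx2, 0.00456 for Rax and 4.09e-08 for Gpr50. It was 8.24e-19 for Foxj1 and 1.37e-20 for Col25a1. Tmem212 was called without the filter (-4.27) and by DESeq2 (-4.09), but with 0 to 6 counts per IP library these values are a description. No called value of the 8 genes changed sign under any alternative run. Scaling to library totals moved the median of all genes to 0.22 and scaling without mitochondrial and ribosomal RNA to -0.36.

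Between diets in IP, the 14 calls over all genes became 193 with DESeq2, 43 on library totals, 36 without mitochondrial and ribosomal RNA, 398 without the filter, 52 with the replicate block and 121 in a fit of all 16 libraries. Leaving out 1 library gave 5 to 50. In INPUT, the 6 calls became 50 with DESeq2, 18 on library totals, 116 without the filter, 43 with the replicate block and 2 in a fit of all 16 libraries, and 2 to 17 without 1 library. The interaction had 0 calls as reported, 2 with DESeq2, 1 without the filter, 1 with the replicate block and 0 to 1 without 1 library. For IP against INPUT the replicate block gave 14837 calls in place of 14724. The cause of these changes was not tested.

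Same-numbered IP and INPUT libraries correlated at -0.02 to 0.24 for HFD and 0.08 to 0.28 for CD, and 6 and 8 of 8 libraries correlated best with their own number. HFD and CD IP libraries correlated at -0.01 to 0.07, with 4 of 8 best with their own number. Depth limits Tmem212 and Ccdc153 in IP and Rax in INPUT.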
